A study of Mus musculus with 12 samples.

Results

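Pou5f1, Sox2, Nanog and Sall4 encode transcription factors at the core of the pluripotency network of embryonic stem (ES) cells, and their mRNA was followed here through knockdown (KD) of 5 chromatin regulators. A probe was taken as one of theirs where its accession on the array maps to one of the 4 gene symbols, which gave 6 of the 39429 probes and 4 of the 29545 genes tested, and all 4 genes passed the filter on dim probes. Pou5f1, Sox2 and Nanog have 1 probe each, and Sall4 has 3. No fold change of Sox2, Nanog or Sall4 was called in any KD. Pou5f1 was too bright for its differences to be measured, and the Nanog probe was dim, with values at the floor on 3 arrays.

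Oct4, the POU-domain protein made from Pou5f1, and Sox2, an HMG-box protein, bind DNA together and hold ES cells in the undifferentiated state. Nanog is a homeodomain protein that works with them and lets ES cells renew with less dependence on the cytokine LIF. Sall4 is a zinc finger protein that binds many of the same loci and can recruit the NuRD complex. NuRD joins histone deacetylases to the remodelling ATPase Chd4, and holds either Mbd3 or Mbd2. Dnmt1 copies cytosine methylation onto newly made DNA, and Tet1 oxidizes methylcytosine.

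RNA came from E14 cells, a mouse ES cell line grown without feeders in medium with serum and LIF, 48 hr after transfection of esiRNAs, short interfering RNAs made by enzymatic digestion. The control was EGFP KD, against a gene that is not part of the mouse genome, and the regulators knocked down were the 2 methylation enzymes Dnmt1 and Tet1 and the 3 NuRD subunits Chd4, Mbd3 and Mbd2, which makes 6 groups with 2 one-colour Agilent arrays each. All groups share the same line and the same transfection, and each sample was a transiently transfected culture rather than a clone. The study compared these KDs to ask how far the methylation enzymes and the NuRD subunits act on the same genes. The study calls the replicates biological, and the labels do not say whether they came from separate days.

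The arrays were printed on 3 slides. Replicate 1 of the control shared slide 1 with the first Mbd2, Dnmt1 and Mbd3 arrays. Slide 2 carried replicate 2 of the control, both arrays of Tet1 KD and replicate 1 of Chd4 KD. No control was on slide 3, which carried the second Chd4, Dnmt1, Mbd2 and Mbd3 arrays. Values are log2 signals, that is log2 of the processed intensity over the 75th percentile of its array, and the percentile ran from 1784.5 to 2451.6 intensity units. Of the targeted genes, Mbd3 fell in Mbd3 KD (log2 fold change -2.96, limma adjusted p = 0.0034) and Chd4 in Chd4 KD (-1.28, limma adjusted p = 0.042), while Dnmt1 changed by -1.99 in Dnmt1 KD without being called (limma adjusted p = 0.4). Probes of Tet1 and Mbd2 went against 2 labels. Where the label reads Tet1 KD replicate 1, Tet1 (A_55_P2122997) differed from the mean of the controls by -0.02 and Mbd2 (A_66_P133043) by -1.75. Where it reads Mbd2 KD replicate 1, Tet1 differed by -1.79 and Mbd2 by -0.24. Another Tet1 probe (A_51_P512172) differed by 0.23 and -1.18 on these arrays. The other Mbd2 probe (A_55_P2036526) differed by -0.20 and -0.08 on them. It differed by -0.07 on Mbd2 KD replicate 2 and by -0.61 on Tet1 KD replicate 2, and so did not follow A_66_P133043. Because of these 2 labels, values for Tet1 KD and Mbd2 KD are given as labelled and also without both arrays.

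Of 7 ES cell markers (Pou5f1, Sox2, Nanog, Zfp42, Esrrb, Utf1 and Dppa5a), 6 were well above background on all 12 arrays and 5 were saturated on at least 1 array. The exception to the first count was Nanog.

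Promoter windows of 300 bases, from 250 before to 50 after a transcript start, are shown for the genes a RefSeq table of GRCm38.p6 held. They show the DNA in which the motifs named next were looked for, and no binding was measured on these arrays. Both strands were searched for the octamer ATGCAAAT, the Sox motif CATTGT and the E-box CACGTG, and, after the windows had been seen, for ATGCAAA, the octamer without its last letter, which every octamer match contains. The share of 32851 promoter windows with a match is 1.74% for the octamer, 4.63% for its 7-letter form, 12.6% for the Sox motif and 7.15% for the E-box. Capitals mark matches on either strand, and a match is a description of the letters only.
Nanog, chr6:122707239-122707538, plus strand: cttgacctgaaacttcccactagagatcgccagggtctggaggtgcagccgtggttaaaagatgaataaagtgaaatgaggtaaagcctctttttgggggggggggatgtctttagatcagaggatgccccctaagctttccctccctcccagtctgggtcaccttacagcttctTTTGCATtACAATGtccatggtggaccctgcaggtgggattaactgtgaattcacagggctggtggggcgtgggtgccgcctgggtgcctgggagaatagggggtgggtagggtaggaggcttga
Sox2, chr3:34649745-34650044, plus strand: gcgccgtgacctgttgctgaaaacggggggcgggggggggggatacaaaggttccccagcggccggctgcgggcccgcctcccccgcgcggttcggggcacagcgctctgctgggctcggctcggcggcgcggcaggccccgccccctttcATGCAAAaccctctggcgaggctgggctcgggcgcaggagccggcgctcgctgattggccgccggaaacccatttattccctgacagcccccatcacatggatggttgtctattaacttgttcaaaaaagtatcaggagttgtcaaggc
Pou5f1, chr17:35505782-35506081, plus strand: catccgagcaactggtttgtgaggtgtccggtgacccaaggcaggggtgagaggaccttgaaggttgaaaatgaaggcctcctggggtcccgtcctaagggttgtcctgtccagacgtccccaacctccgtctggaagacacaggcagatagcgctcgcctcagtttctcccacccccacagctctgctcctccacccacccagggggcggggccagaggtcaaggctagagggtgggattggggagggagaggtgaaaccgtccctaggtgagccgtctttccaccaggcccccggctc

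The Nanog window holds the 7-letter form at position -75 from the start and the Sox motif at -67, both on the minus strand and parted by 1 base. From the second listed start of Nanog the same matches lie at -151 and -143. The Sox2 window holds the 7-letter form at -99 on the plus strand. The Pou5f1 window at its upstream start has no match to any of the 4 motifs, and the window at its second listed start has 1 Sox motif. None of the 3 windows shown has the full octamer or the E-box. The Sox2 window is the richest of them in CpG, the dinucleotide that Dnmt1 and Tet1 act on, with 27 against 11 for Pou5f1 and 4 for Nanog, beside a median of 7 over all windows.

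**Figure D1:**
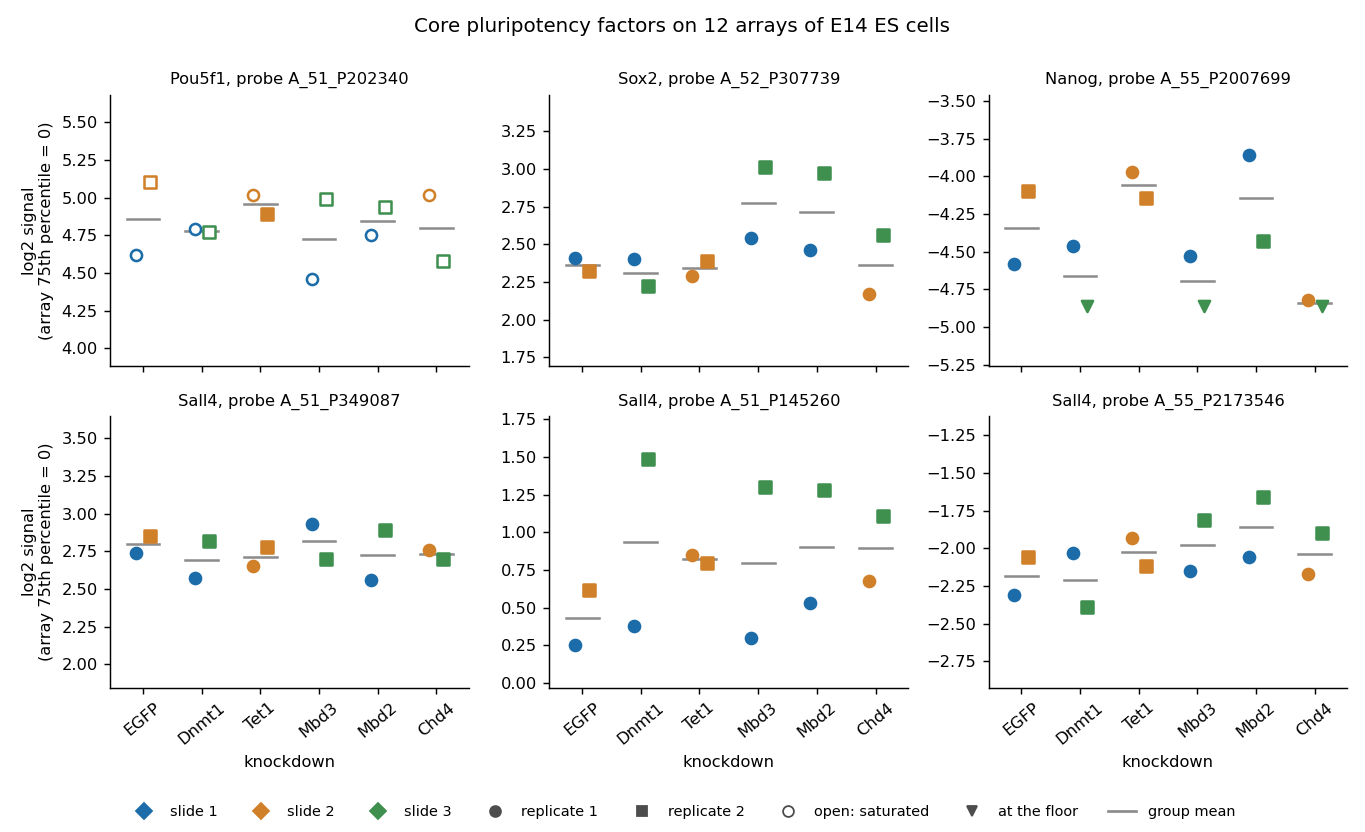
Log2 signal (y axis, 0 is the 75th percentile of the array) of the 6 probes in each KD (x axis) on 12 arrays, with circles for replicate 1, squares for replicate 2, colours for slides, grey bars for group means, open symbols for saturated spots and triangles for the floor. Pou5f1 is open on 11 arrays, Nanog reaches the floor on 3 arrays, and Sall4 A_51_P145260 orders by slide.

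Pou5f1 (chr17:35506032-35510777, probe A_51_P202340) was read at the top of the scanner's range. The spot was saturated on 11 of 12 arrays, the exception being Tet1 KD replicate 2, so its level is bounded from below and no fold change is given. Processed intensity ran from 53059 in Mbd3 KD replicate 1 to 65746 in EGFP KD replicate 2. The control arrays read 4.62 and 5.10 on the log2 scale. By label, Dnmt1 KD gave 4.79 and 4.77 and Tet1 KD 5.02 and 4.89, while Mbd3 KD gave 4.46 and 4.99, Mbd2 KD 4.75 and 4.94, and Chd4 KD 5.02 and 4.58. Every KD overlapped the controls, Mbd3 KD replicate 1 and Chd4 KD replicate 2 being the only arrays below both of them, and a fall in the mRNA that left the spot above the scanner's limit would not be seen. Slide 2 held the 4 values from 4.89 to 5.10 and slide 1 those from 4.46 to 4.79, without overlap.

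Sox2 (chr3:34649995-34652461, probe A_52_P307739), a single-exon gene, was well above background on all 12 arrays and saturated on none. The control arrays read 2.41 and 2.32 on the log2 scale. By label, and of the NuRD subunits, Mbd3 KD gave 2.54 and 3.01, Mbd2 KD 2.46 and 2.97, and Chd4 KD 2.17 and 2.56, and of the methylation enzymes Dnmt1 KD gave 2.40 and 2.22 and Tet1 KD 2.29 and 2.39. Both Mbd3 KD arrays and both Mbd2 KD arrays were above both controls, and the other 3 KDs overlapped the controls. The order of the means was Mbd3 KD (2.77 ± 0.33, SD, n = 2), Mbd2 KD (2.72 ± 0.36), EGFP KD (2.37 ± 0.07) and Chd4 KD (2.37 ± 0.28), Tet1 KD (2.34 ± 0.07) and Dnmt1 KD (2.31 ± 0.12), and no neighbours in it differed by more than the SD of the more variable one.

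Against EGFP KD, Sox2 differed by 0.41 in Mbd3 KD (95% confidence interval -0.13 to 0.95, limma adjusted p = 0.7) and by 0.35 in Mbd2 KD (-0.19 to 0.89, limma adjusted p = 1) on the log2 scale. The differences were 0.00 in Chd4 KD, -0.02 in Tet1 KD and -0.06 in Dnmt1 KD, with a standard error of 0.23 each. The interval extended 0.54 to either side of each value, a factor of 1.45. Replicate 2 of Mbd3 KD and of Mbd2 KD, the higher arrays, were on slide 3, which had no control. Within slide 1, Mbd3 KD replicate 1 was 0.13 and the array labelled Mbd2 KD replicate 1 was 0.05 above the control of that slide. With the slide as a block, the Mbd3 KD difference was 0.22 and that of Mbd2 KD 0.16 (limma adjusted p = 0.75 and 1). Without both arrays that went against their labels, Sox2 differed by 0.61 in Mbd2 KD (limma adjusted p = 0.85) and by 0.02 in Tet1 KD.

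Nanog (chr6:122707489-122714633, probe A_55_P2007699) gave a dim spot, with processed intensities between 39 and 138, and was well above background on 10 of 12 arrays. Where the probe lies in the transcript was not analysed here, and the low brightness of a probe is not by itself a low amount of RNA. The log2 signal was -4.58 and -4.10 in EGFP KD, -3.97 and -4.14 in Tet1 KD, and -3.86 and -4.43 in Mbd2 KD. Replicate 1 was -4.46 in Dnmt1 KD, -4.53 in Mbd3 KD and -4.82 in Chd4 KD, and replicate 2 of these 3 KDs, all on slide 3, was set at the floor of -4.86. Both Chd4 KD arrays were below both control arrays, and the other 4 KDs overlapped the controls.

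In Chd4 KD the Nanog difference was -0.50 (95% confidence interval -1.10 to 0.10, limma adjusted p = 0.52). Replicate 1, on slide 2, was -0.72 from the control of that slide, and the spot of replicate 2 was not well above background. The array labelled Mbd2 KD replicate 1 stood as far from the control of slide 1 in the other direction, at 0.72. With no floor the difference was -1.06 (limma adjusted p = 0.51), and without EGFP KD replicate 1 or replicate 2 it was -0.74 and -0.26. In the other KDs Nanog differed by -0.35 (Mbd3 KD), -0.32 (Dnmt1 KD, -0.62 with no floor), 0.19 (Mbd2 KD) and 0.29 (Tet1 KD), with a standard error of 0.25 and limma adjusted p from 0.8 to 1. Without both arrays that went against their labels it differed by -0.09 in Mbd2 KD and 0.20 in Tet1 KD.

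Sall4 (chr2:168748332-168767201) is represented by probe A_51_P349087, which varied little between arrays. The control arrays read 2.74 and 2.85 on the log2 scale. By label, the values were 2.76 and 2.70 (Chd4 KD), 2.93 and 2.70 (Mbd3 KD), 2.56 and 2.89 (Mbd2 KD), 2.57 and 2.82 (Dnmt1 KD) and 2.65 and 2.78 (Tet1 KD). All 5 KDs overlapped the controls, and the SD over the 12 arrays was 0.12, against a median of 0.324 over all genes tested and 0.42 for another Sall4 probe, A_51_P145260. The differences from EGFP KD were 0.02 (Mbd3 KD), -0.06 (Chd4 KD), -0.07 (Mbd2 KD), -0.08 (Tet1 KD) and -0.10 (Dnmt1 KD), with a standard error of 0.15. The 95% interval extended 0.35 to either side, a factor of 1.27. Without both arrays that went against their labels, the differences were -0.01 in Tet1 KD and 0.09 in Mbd2 KD.

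**Figure D2:**
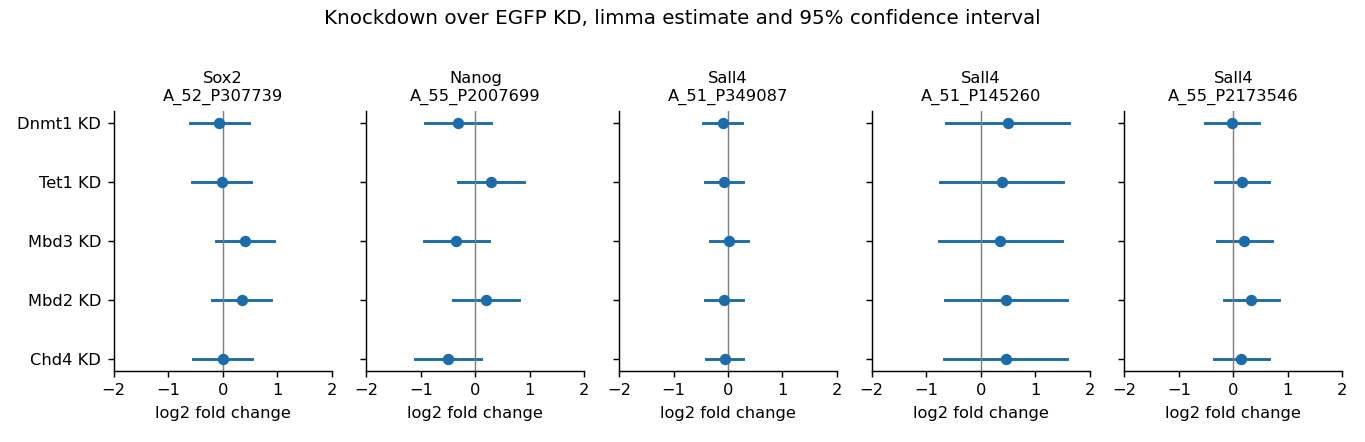
Log2 fold change over EGFP KD (x axis) in the 5 KDs (y axis) for Sox2, Nanog and the 3 Sall4 probes, with limma's 95% confidence interval as a line. Every interval includes 0, and Sall4 A_51_P145260 has the widest, 1.12 to either side.

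The other Sall4 probes read the same transcript accession, and they did not track the first. Probe A_51_P145260 was lowest on slide 1 (0.25 to 0.53), higher on slide 2 (0.62 to 0.85) and highest on slide 3 (1.11 to 1.49), with no overlap between slides although each slide held 3 or 4 groups. A slide term added to the group means was called for this probe (limma F test, adjusted p = 0.004), as it was for 22.9% of all probes tested, and for none of the other 5 member probes (adjusted p from 0.098 to 0.67). Its differences from EGFP KD were 0.36 to 0.50 in the 5 KDs, with a standard error of 0.48, and -0.01 to 0.25 with the slide as a block. Probe A_55_P2173546 ran from -2.39 in Dnmt1 KD replicate 2 to -1.66 in Mbd2 KD replicate 2, and its differences from EGFP KD were -0.02 to 0.33 (standard error 0.21, limma adjusted p from 0.84 to 1). Pearson's r over the 12 arrays between A_51_P349087 and the other probes was 0.175 and -0.0838.

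**Figure D3:**
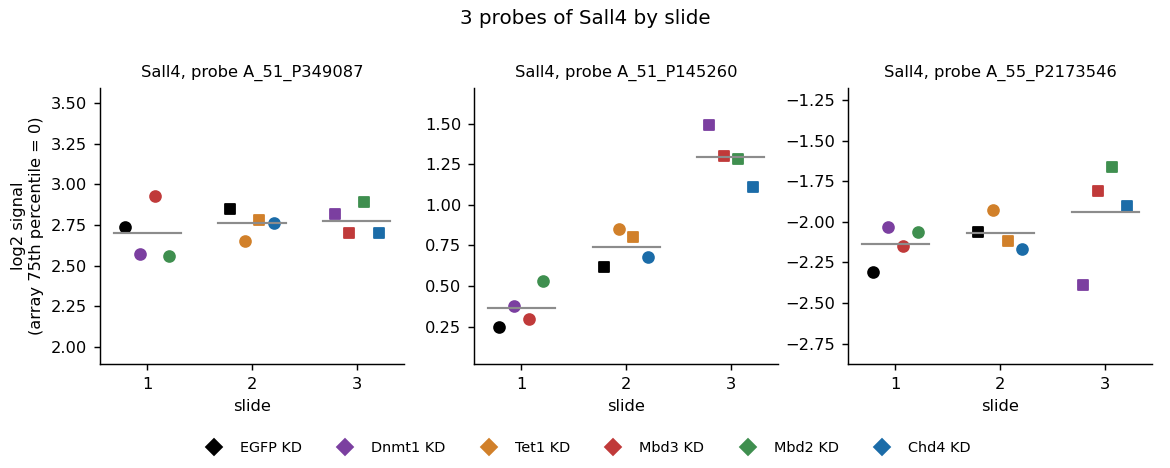
Log2 signal (y axis, 0 is the 75th percentile of the array) of the 3 Sall4 probes by slide (x axis), coloured by KD, with circles for replicate 1, squares for replicate 2 and grey bars for slide means. The middle probe rises from 0.36 to 0.74 and 1.30 in slide means, while A_51_P349087 stays between 2.70 and 2.78.

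Of the 3 members other than the saturated Pou5f1, none was called in any KD. By the same rule, a limma adjusted p under 0.05, 3.23% of genes tested were called in Chd4 KD, 0.785% in Mbd3 KD and 0% in each of the other 3 KDs. With shares this low a count of 0 among 3 genes says little about the members. The intervals give the precision for Sox2 and Sall4. Those of Nanog rest on values at the floor in 3 KDs, and a fall below the floor would not be seen in them. At an unadjusted limma p under 0.05 the genes past the threshold were 3828 (Chd4 KD), 2884 (Mbd3 KD), 1409 (Dnmt1 KD), 874 (Tet1 KD) and 625 (Mbd2 KD), and Sox2, Nanog and Sall4 were not among them in any KD. None of the 5 unsaturated member probes was called for a difference among the 6 groups (limma F test, adjusted p from 0.51 to 1, with 2.2% of probes called). Between the NuRD subunits, none of these 5 probes was called between Chd4 KD and Mbd3 KD, where 1.51% of probes were called, and Sox2 had the lowest adjusted p (-0.41, 95% confidence interval -0.95 to 0.13, limma adjusted p = 0.69).

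Genes around the core factors were taken in 6 lists of 84 genes, of which 79 were tested. In Chd4 KD 1 rose and 3 fell, in Mbd3 KD 1 fell, and none was called in the other 3 KDs. Over all genes 1.97% were called higher and 1.26% lower in Chd4 KD, and 0.491% and 0.294% in Mbd3 KD. The KDs share the control arrays, so their values stand side by side and are not independent.

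Of 14 genes that Oct4 and Sox2 are known to act on, Spp1 was called in Chd4 KD. Spp1 encodes osteopontin, a secreted matrix protein, and its log2 signal was 1.69 and 1.77 in EGFP KD and 0.54 on both Chd4 KD arrays. It fell by 1.19 on the log2 scale (limma adjusted p = 0.0059, standard error 0.13), and it was 1.33 and 1.00 in Mbd3 KD without a call (limma adjusted p = 0.16). The list's median, saturated probes included, was -0.08 in Chd4 KD and 0.04 in Mbd3 KD, beside 0.00 and -0.03 over all genes tested. Fgf4, the growth factor gene whose enhancer Oct4 and Sox2 bind together, differed by -0.57 in Chd4 KD (limma adjusted p = 0.34, standard error 0.23). Uncalled differences of the list in Chd4 KD ran from -1.16 (Nr0b1, limma adjusted p = 0.055) to 0.59 (Lefty1, limma adjusted p = 0.39). Probes of 3 of the 14 genes (Utf1, Zfp42 and Dppa5a) were saturated on 7 to 12 arrays and give bounds only, as Pou5f1 does.

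Among 18 partner transcription factors, Gbx2 and Sp5 fell in Chd4 KD and Sp5 fell in Mbd3 KD. Gbx2 encodes a homeobox protein downstream of LIF and Stat3 in ES cells, and its log2 signal was 1.48 and 1.15 in EGFP KD, -0.09 and -0.38 in Mbd3 KD, and -1.34 and -1.36 in Chd4 KD. All 4 of these KD arrays were below all arrays of the other groups, the differences being -2.66 for Chd4 KD (limma adjusted p = 0.0031, standard error 0.25) and -1.55 in Mbd3 KD (limma adjusted p = 0.055, not called). Sp5, a zinc finger gene that Wnt signalling induces, was at -1.24 and -1.37 in EGFP KD, -2.26 and -2.32 in Chd4 KD and -2.88 and -2.78 in Mbd3 KD. It fell by 0.98 in Chd4 KD (limma adjusted p = 0.009, standard error 0.13) and by 1.52 in Mbd3 KD (limma adjusted p = 0.01). The Sp5 call in Mbd3 KD was lost with the slide as a block (-1.57, limma adjusted p = 0.05 after rounding), without both arrays that went against their labels (-1.52, limma adjusted p = 0.057), without EGFP KD replicate 1 (-1.46, limma adjusted p = 0.064) and without Mbd3 KD replicate 1 (-1.47, limma adjusted p = 0.068). The Sp5 call in Chd4 KD was lost without EGFP KD replicate 1 or either Chd4 KD array (limma adjusted p = 0.051 to 0.073). Esrrb was saturated on 11 arrays and Klf2 on 1, and Klf4 differed by -0.30 in Chd4 KD and 0.54 in Mbd3 KD with a standard error of 0.33. Myc had the lowest value of the list in Mbd3 KD without a call (-2.26, limma adjusted p = 0.086, standard error 0.43). In Chd4 KD it differed by -1.44 (limma adjusted p = 0.17), and its SD in EGFP KD was 0.86. The highest value in Mbd3 KD was 0.78 (Tbx3, limma adjusted p = 0.54). The median of the 18 genes was -0.21 in Chd4 KD and 0.01 in Mbd3 KD.

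**Figure D4:**
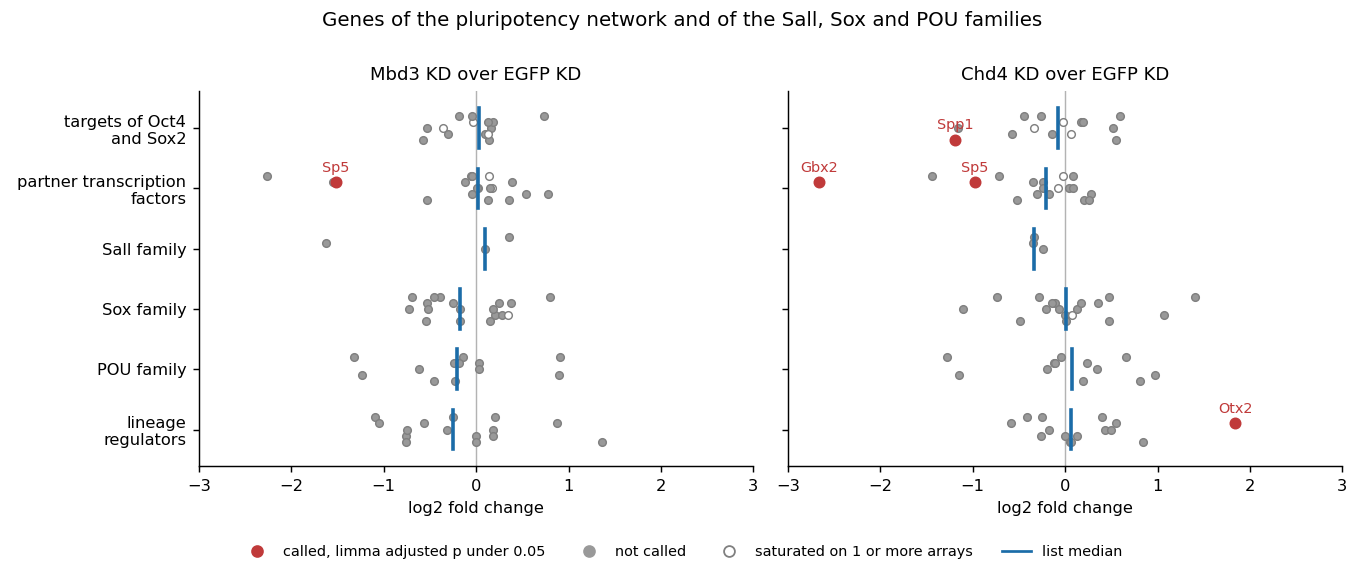
Log2 fold change over EGFP KD (x axis) of each tested gene of the 6 lists (y axis) in Mbd3 KD and Chd4 KD, with called genes named in red, genes saturated on at least 1 array open and list medians as blue bars. Spp1, Gbx2 and Sp5 lie left of 0 and Otx2 lies right of 0 in Chd4 KD.

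Lineage regulators that the core factors are known to restrain gave 1 call among 15 tested genes, a rise in Chd4 KD. Over all genes tested 1.97% were called higher there. Otx2, a homeobox gene of the primed epiblast, was at 1.14 and 0.94 in EGFP KD, 2.74 and 3.01 in Chd4 KD and 1.76 and 2.07 in Mbd3 KD. After Chd4 loss it rose by 1.84 (limma adjusted p = 0.014, standard error 0.26), and the 0.88 in Mbd3 KD was not called (limma adjusted p = 0.27). The call in Chd4 KD was lost without any 1 of the 2 EGFP KD and 2 Chd4 KD arrays (limma adjusted p = 0.057 to 0.1), with the value between 1.71 and 1.97. The list's median was 0.06 in Chd4 KD and -0.25 in Mbd3 KD. Gsc, Onecut1 and Myf5 were not tested because their probes were too dim or marked as outliers.

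The families to which the core factors belong gave no call in any KD as fitted here, but 1 or 2 Sox genes or 1 or 2 POU genes were called in Chd4 KD under some alternatives, the count staying at 0 in 20 of 26 for Sox and 22 of 26 for POU genes. The authors' table, tested against 0, also called 1 gene of each family in Mbd3 KD, 1 Sall gene in Chd4 KD and 2 POU genes in Dnmt1 KD. Of the Sall family, 3 other genes were tested, with differences from -0.35 to -0.24 in Chd4 KD and from -1.62 (Sall2) to 0.36 (Sall1) in Mbd3 KD. Of 18 other Sox genes, those nearest to a call in Chd4 KD were Sox3 (-0.74, limma adjusted p = 0.061) and Sox7 (1.41, limma adjusted p = 0.071). Sox13 differed by -0.17 in Mbd3 KD and by 0.01 in Chd4 KD, while the probe of Sox5 was saturated on all 12 arrays. Of 12 tested POU genes, Pou2f1 (Oct1) differed by 0.03 in Mbd3 KD and by -0.12 in Chd4 KD. Pou3f1 (Oct6) differed by -0.46 and 0.19 there, with limma adjusted p from 0.48 to 1. The POU genes nearest to a call in Chd4 KD were Pou4f1 (0.34, limma adjusted p = 0.099) and Pou4f2 (-1.15, limma adjusted p = 0.14). In Mbd3 KD these 2 genes differed by 0.03 and by -1.24 (limma adjusted p = 0.99 and 0.2).

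Markers of other cell types are given as the sum of scaled intensities over each list, in which the brightest probes weigh most. In Chd4 KD 1 of 5 primed epiblast, 1 of 8 trophectoderm and 2 of 5 fibroblast genes were called, beside 3.23% of all genes tested. The share of all genes in Mbd3 KD was 0.785%. Sums outside the range of EGFP KD were not particular to Chd4 KD. The fibroblast sum was 6.4 to 6.78 in Dnmt1 KD and 5.47 to 5.79 in Tet1 KD, and the neural sum was 4.99 to 5.33 in Mbd3 KD. None of the 5 neural markers was called in Mbd3 KD, and their median difference there was -0.27. The primed epiblast sum was 18.1 to 19.4 in Chd4 KD and 12.9 to 15.3 in EGFP KD, the trophectoderm sum 8.47 to 8.79 and 4.98 to 5.20, and the fibroblast sum 9.16 to 11.6 and 4.65 to 4.90. The primitive endoderm sum was 4.55 to 4.77 in Chd4 KD and 9.37 to 11.4 in EGFP KD, with 1 of 8 genes called (Lama1, -1.51), although the median of the 8 differences was 0.31 and Sox7 (1.41) went the other way, and the neural sum was 3.75 to 4.53 and 4.00 to 4.13. In Mbd3 KD the fibroblast sum was 9.12 to 9.40, with 1 of 5 genes called (Thy1, 1.28) and a median difference of -0.23. The trophectoderm sum was 6.31 to 6.32 there, although the only call among its 8 genes was a fall (Gata3) and their median difference was -0.01. The median differences in Chd4 KD were -0.02 for fibroblast, 0.29 for trophectoderm and 0.06 for primed epiblast markers. The ES cell sum, which saturated probes fill, was 137 to 168 in Chd4 KD, 135 to 181 in Mbd3 KD and 150 to 175 in EGFP KD. In bulk RNA fewer cells of a type and less RNA per cell cannot be told apart, and the part of other cells in the list results was not tested.

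The genes whose log2 signals ran most like each member over the 12 arrays were found among 15354 genes with unsaturated probes above background throughout. For Sox2 they were Ofd1 (Pearson's r = 0.966), Txndc9 (0.965) and Got1 (0.962), and with slide means removed r was 0.957, 0.952 and 0.952. For Sall4 A_51_P349087 they were Ptprz1 (0.845), Sdcbp (0.833) and Cwc15 (0.808), and for Nanog Plscr1 (0.877), Ttll13 (0.857) and Tbc1d24 (0.848). With slide means removed, r for the Nanog genes was 0.858, 0.868 and 0.758, and Nanog itself was at the floor on 3 of the 12 arrays. The points share slides and pairs of a group, these are the highest of many, and for Pou5f1 none is given because of saturation. Among the members' own probes the highest r was 0.754, between Sox2 and Sall4 A_55_P2173546, and it was 0.805 with slide means removed.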

How the data were processed

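The authors labelled total RNA with Cy3, hybridised 1 sample per Agilent 4 × 44K array and quantified spots with Feature Extraction 10.7.1.1 (submitters' processing notes), and they deposited scanner files whose processed intensity is background-corrected and not normalized between arrays. A second file the authors deposited gives 12459 rows of log2 values against the control, on a scale that appears compressed, named as quantile by its file and with no step described in the sources used here, and holds no row of the 4 members. Control spots (1377) and spots with an outlier mark (92 to 306 per array) were left out. Intensities were divided by the array's 75th percentile, floored at 0.0344 (log2 -4.86; each array's dimmest spot well above background was found, and the highest of these 12 values taken) and log2-transformed, and spots of a probe were averaged.

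A probe was tested where some group had both its arrays well above background (35687 probes), and these were fitted with limma 3.58.1 in R 4.3.3, with 1 mean per group over the 12 arrays. P-values are two-sided, Benjamini-Hochberg adjusted over all probes within a comparison, and a call is an adjusted p under 0.05. A gene stands for its brightest probe saturated on no array, and otherwise its brightest. Probe accessions were turned into symbols with RefSeq's GRCm38.p6 annotation, and 71.4% of spots found one. The steps were tested on simulated data. Only 2 arrays per group limit the precision.

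Named are the members and targeted genes, per list and KD up to 2 called rises and 2 called falls, family genes with the highest EGFP KD signal (a choice of names, since probes' brightness is not compared), and the 3 genes most like each member. Fgf4, Nr0b1, Lefty1, Klf4, Myc, Tbx3, Sox3, Sox7, Pou4f1, Pou4f2, uncalled markers and the genes with saturated probes were named after their values were seen. The members and lists were chosen with earlier results of these data known. Alternatives were other scalings, background correction, filters, probe rules, blocks, arrays, variance priors and thresholds. No floor, the slide test and the 7-letter motif were added after seeing the data.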

Additional observations from a re-analysis of the deposited data

How the results depend on the processing

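No member was called among 600 values from 25 alternatives (smallest limma adjusted p 0.39), counting Sox2, Nanog and the 3 Sall4 probes in 5 KDs, and 43 of these uncalled values changed sign. The members without a row in the authors' table could not be recomputed from it, and the filter for probes above background on all 12 arrays leaves Nanog out. Of the genes of the 6 lists, 1 was called in Mbd3 KD and 4 in Chd4 KD. With normexp these became 3 and 7, with only the 4 arrays of a comparison 0 and 0, at an adjusted p under 0.1 3 and 8, and at an unadjusted p under 0.05 16 and 16, with 3 in Dnmt1 KD, 3 in Mbd2 KD and 1 in Tet1 KD. In Mbd3 KD the count was 0 with the slide block and 0 without both arrays labelled Tet1 KD and Mbd2 KD of replicate 1. The authors' table, tested against 0 and so without the spread of the controls, called 18 in Mbd3 KD, 23 in Chd4 KD, 4 in Dnmt1 KD and 1 in Tet1 KD, among 34 list genes with a row. With 1 array left out the count was 0 to 2 in Mbd3 KD and 2 to 6 in Chd4 KD, where the fit assumes that the lone array of a group varies like the others. It was 0 in Mbd3 KD without EGFP KD replicate 1 or Mbd3 KD replicate 1, 2 in Mbd3 KD without either Dnmt1 KD or either Mbd2 KD array, and 2 in Chd4 KD without EGFP KD replicate 1 or either Chd4 KD array. The cause was not tested. Gbx2 and Spp1 in Chd4 KD kept their call in 25 of 26 alternatives, Sp5 in 22 and Otx2 in 21.

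Replicate numbers are shared between groups, but nothing says they mark a shared day. Deviations of same-numbered arrays from their group means correlated at -0.0413 to 0.769 over 15 pairs of groups (median 0.384). The highest values, 0.769, 0.709 and 0.638, were between Dnmt1 KD, Mbd3 KD and Mbd2 KD. In these groups replicate 1 was on slide 1 and replicate 2 on slide 3, so replicate number and slide cannot be told apart. With a replicate block 0 members were called in any KD, and list genes numbered 1 in Mbd3 KD and 6 in Chd4 KD.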

Other observations

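Besides Otx2, the called markers of other cell types are described here, and none of them is a core factor. Over all genes tested, 3.23% were called in Chd4 KD and 0.785% in Mbd3 KD. In Chd4 KD, Col1a1, a fibroblast collagen gene, was at -1.80 and -1.90 on the log2 scale against -4.29 and -4.41 in EGFP KD and rose by 2.49 (standard error 0.20, limma adjusted p = 0.0019). Thy1, a surface glycoprotein of fibroblasts, rose by 1.42 in Chd4 KD (limma adjusted p = 0.0019) and by 1.28 in Mbd3 KD (limma adjusted p = 0.011). Its mean log2 signal was already 1.75 in EGFP KD. The other fibroblast markers tested were not called in Chd4 KD and differed by -1.07 (Lum), -0.51 (Dcn) and -0.02 (Col1a2). In Mbd3 KD the median of the fibroblast markers was -0.23. Krt18, an epithelial keratin, rose by 1.18 in Chd4 KD (limma adjusted p = 0.02). Of the other trophectoderm markers there, Krt8 differed by 0.07 and Cdx2 by -0.25, and the list's median was 0.29. Whether these calls mark other cell types was not tested. Lama1, a laminin chain of the embryonic basement membrane, was at 1.62 and 1.71 in Chd4 KD against 3.07 and 3.28 in EGFP KD and fell by 1.51 (limma adjusted p = 0.0041). Gata3, a trophectoderm transcription factor, was at the floor on both arrays of Mbd3 KD, of Dnmt1 KD and of Tet1 KD, at least 1.82-fold lower than in EGFP KD, and the same difference was called in Mbd3 KD (limma adjusted p = 0.034) and not in Dnmt1 KD (0.21) or Tet1 KD (0.96). It differed by -0.72 in Mbd2 KD (limma adjusted p = 1). The floor gave Gata3 an SD of 0 in Mbd3 KD, Dnmt1 KD and Tet1 KD. Its Mbd3 KD call was made in 7 of 25 alternatives and was lost with no floor (-2.96, limma adjusted p = 0.25). The Thy1 call in Mbd3 KD and the Krt18 call were made in 21 of 26, and the calls of Col1a1, Lama1 and Thy1 in Chd4 KD in 25 of 26.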
